A study of Mus musculus with 55 samples.

Results

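Cells that copy their DNA and divide switch on a shared set of genes, and 39 such genes, from the helicase that opens replication origins to the ubiquitin enzymes that end mitosis, were followed in the healing mouse heart. They were chosen by name, and all 39 were found among the 56941 genes measured at day 7 and the 57186 measured at day 28 (57260 in either). For description they were divided into 17 genes of DNA synthesis and entry into the cycle and 22 genes of mitosis. The samples were infarcted left ventricle of C57BL/6J mice, a common inbred strain, taken on day 7 or day 28 of a myocardial infarction (MI) made by permanent coronary ligation. Type 1 diabetic, type 2 diabetic and non-diabetic tissue gave 8, 8 and 8 libraries at day 7 and 10, 10 and 11 at day 28. The library names carry hi STZ for type 1, lo STZ HFFD for type 2 and Ctrl for non-diabetic tissue, so the type of diabetes and the treatment that made it cannot be told apart. All groups had an infarct, and no uninjured heart was analysed here. The design text mentions day 7 alone, and day 28 was taken from the sample labels. The libraries of the 2 days were sequenced under different project numbers, which leaves time after MI and project confounded, so they cannot be told apart. The age of the mice, and whether replicates came from separate mice, is not given in the sources used here, so p-values measure the spread between libraries, which may be in part technical. RNA was measured in whole tissue, where more cells of a dividing type and more RNA per cell cannot be told apart.

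A cell that is about to divide first loads the MCM helicase onto its origins, with Cdc6 and Cdt1, and raises its supply of nucleotides. Cyclin E then starts DNA synthesis, and E2F transcription factors drive many of these genes. Genes of mitosis are switched on later, largely through MYB and FOXM1 acting with the MuvB complex, and the promoters of many of them hold a CHR element (cell cycle genes homology region) and CCAAT boxes. In the infarct, macrophages, fibroblasts and endothelial cells are known to divide during the first week, whereas adult cardiomyocytes seldom do.

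The promoters of both gene groups are shown by 4 members, because these promoters differ in the elements they hold. Of the 39 genes, 32 had a promoter window in RefSeq (build GRCm38.p6), of which Prc1 and Mcm7 had more than 1, and Mcm4, Ccne2, Foxm1, Ccna2, Aurkb, Tpx2 and Kif20a had none. The 250 bases before the start of transcription are given from 5′ to 3′ on the strand of the gene, and capitals mark every match on either strand to an E2F word (TTCGCGC and TTGGCGC, or TTCCCGC and TTGCCGC), a CHR word (TTTGAA or TTTAAA) or CCAAT. Mcm5 lies on the plus strand at chr8:75109259-75109508 and Mcm6 on the minus strand at chr1:128359706-128359955. Ube2c lies on the plus strand at chr2:164769679-164769928 and Top2a on the minus strand at chr11:99024190-99024439.
Mcm5: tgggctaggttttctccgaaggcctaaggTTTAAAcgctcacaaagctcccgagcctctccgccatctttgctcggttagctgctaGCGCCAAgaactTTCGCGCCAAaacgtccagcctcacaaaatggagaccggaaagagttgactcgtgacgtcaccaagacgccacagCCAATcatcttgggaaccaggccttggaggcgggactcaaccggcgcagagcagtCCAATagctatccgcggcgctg
Mcm6: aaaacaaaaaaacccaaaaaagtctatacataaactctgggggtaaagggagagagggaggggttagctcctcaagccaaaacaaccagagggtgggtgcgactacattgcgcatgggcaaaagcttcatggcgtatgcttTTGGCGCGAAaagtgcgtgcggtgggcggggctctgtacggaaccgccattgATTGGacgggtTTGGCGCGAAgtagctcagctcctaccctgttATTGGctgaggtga
Ube2c: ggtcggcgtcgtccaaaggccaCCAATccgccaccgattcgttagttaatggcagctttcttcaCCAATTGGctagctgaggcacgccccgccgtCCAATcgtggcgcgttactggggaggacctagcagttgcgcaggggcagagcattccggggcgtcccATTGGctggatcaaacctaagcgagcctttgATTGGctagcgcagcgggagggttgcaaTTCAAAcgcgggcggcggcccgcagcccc
Top2a: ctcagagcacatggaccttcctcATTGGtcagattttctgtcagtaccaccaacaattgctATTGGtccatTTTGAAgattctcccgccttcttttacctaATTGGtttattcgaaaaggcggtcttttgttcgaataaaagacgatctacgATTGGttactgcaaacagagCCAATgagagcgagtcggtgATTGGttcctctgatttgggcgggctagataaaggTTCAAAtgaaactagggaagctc

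Mcm6 holds the E2F words as overlapping pairs of a forward TTGGCGC and a reverse TTCGCGC, whose first bases lie at -109 and -106 and again at -46 and -43 from the start, and Mcm5 has the same words on opposite strands at -164, -152 and -149, of which the last 2 overlap, and a TTTAAA at -221. Ube2c and Top2a have no E2F word, and each has 6 CCAAT boxes and a reverse TTTGAA close to the start, at -29 and -23. A pair of CCAAT boxes on opposite strands overlaps in Ube2c (-186 and -183). Over the 300 bases from 250 before to 50 after the start, a CHR word was present in 16 of 18 mitosis genes (88.9%) and 5 of 14 synthesis and entry genes (35.7%), against 30.6% of the promoters of all 27025 genes in the table. An E2F word was present in 3 of 18 mitosis genes (16.7%) and 8 of 14 synthesis and entry genes (57.1%), against 10.9% of all. These 3 mitosis genes, Cdk1, Ccnb1 and Mki67, also held a CHR word and are not among the promoters shown. CCAAT was present in 16 of 18 mitosis genes and 8 of 14 synthesis and entry genes, against 41.1% of all. These are matches of letters and do not show that a factor binds.

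At day 7 type 1 libraries held 31.3 to 51.2 M counts, type 2 libraries 30.8 to 48.2 M counts and non-diabetic libraries 10.8 to 46.8 M counts, and at day 28 all libraries held between 48.1 and 92.9 M counts. Cardiomyocyte, fibroblast and macrophage markers were present in every group, which cannot tell infarct from uninjured heart, as no uninjured heart was analysed. Type 1 replicate 4 at day 7 stood apart from its group, with the 15 cardiomyocyte markers summing to 2476 CPM (counts scaled to library size, by TMM), the 8 B cell markers to 3960 CPM and the neutrophil precursor markers to 118 CPM. Type 2 replicate 4 at day 28 did so too, with a B cell sum of 7416 CPM and a cardiomyocyte sum of 14514 CPM. CPM stands for counts per 1 M counts of the library. The counts of the 39 genes called are also given without them, and other counts of called genes, recounted without them in the same way, where this moved them over 1.5 times. The cardiomyocyte sums had medians of 16311, 20865 and 19901 CPM in type 1, type 2 and non-diabetic tissue at day 7. At day 28 these medians were 50753, 50525 and 64076 CPM. Fibroblast medians, in the same order, were 36724, 42457 and 54042 CPM at day 7. At day 28 they were 15790, 13837 and 13440 CPM.

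At day 7 most of the proliferation genes rose in the type 1 infarct and 10 of 39 in the type 2 infarct, against the non-diabetic infarct. The 39 genes together reached 987, 1477 and 1753 CPM (lowest, median and highest library) in type 1, 1022, 1227 and 1553 CPM in type 2 and 658, 882 and 1332 CPM in non-diabetic tissue. All 8 type 1 libraries and all 8 type 2 libraries lay above the non-diabetic median, but only 5 type 1 and 3 type 2 libraries exceeded the highest non-diabetic library, so the groups overlapped. At day 28 the sums were 272, 294 and 330 CPM in type 1, 253, 380 and 466 CPM in type 2 and 192, 268 and 311 CPM in non-diabetic tissue. Here 8 of 10 type 2 libraries, but 1 of 10 type 1 libraries, passed the highest non-diabetic sum. All 10 type 1 and 9 of 10 type 2 libraries lay above the non-diabetic median. For the 22 mitosis genes alone, 6 type 1 and 8 type 2 libraries passed the highest non-diabetic sum. For the 17 synthesis and entry genes 1 and 6 did. The 466 CPM was type 2 replicate 4, and the next highest type 2 library had 426 CPM.

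**Figure D1:**
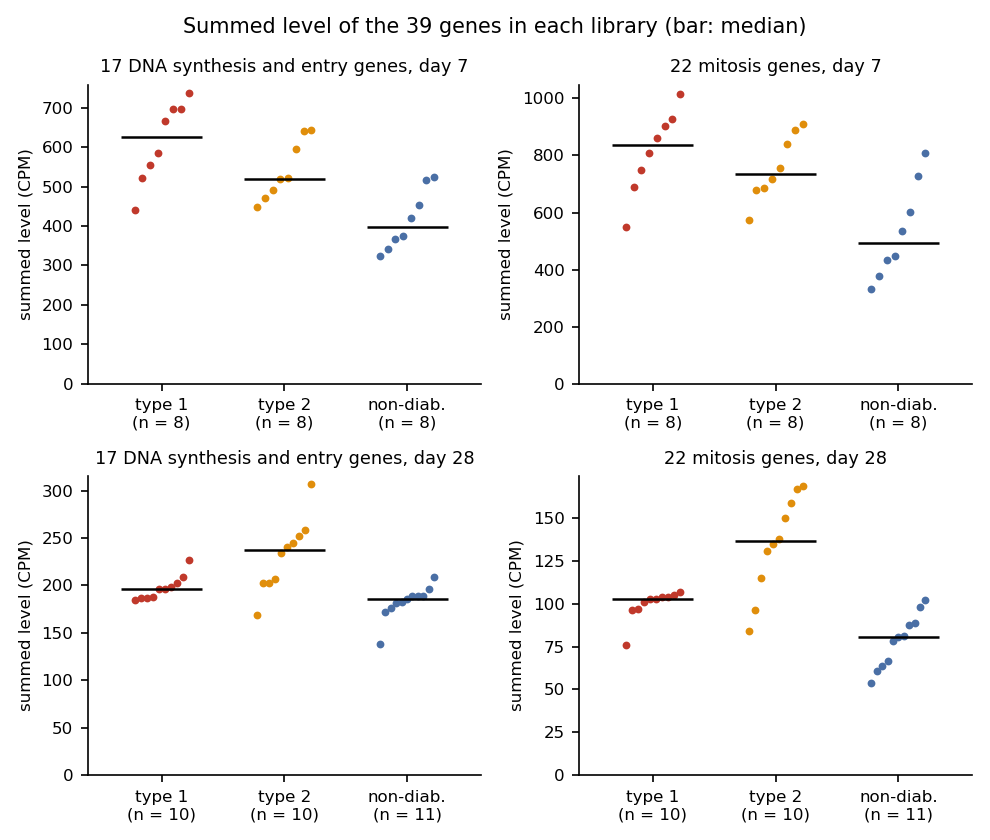
Summed level in CPM (y axis) of the 17 DNA synthesis and entry genes (left) and the 22 mitosis genes (right) at day 7 (top) and day 28 (bottom), with 1 point per library and a bar at the group median. Type 1 has the highest medians at day 7 (626 and 836 CPM) and type 2 at day 28 (238 and 136 CPM).

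In type 1 against non-diabetic tissue at day 7, 37 of the 39 genes rose and none fell, with a median log2 change of 0.59. Of all 18165 genes tested, 11.1% rose and 11.4% fell, with a median change of -0.01. The call was an adjusted p at or under 0.05 (edgeR, quasi-likelihood F-test, Benjamini-Hochberg adjustment over all tested genes). The 2 genes that missed it were Tyms, which encodes thymidylate synthase (0.38, SE 0.151, adjusted p = 0.0685), and Cenpf, a kinetochore protein (0.34, SE 0.14, adjusted p = 0.0777). In type 2 against non-diabetic tissue at day 7, 10 of 39 genes rose and none fell (median 0.43), where 3.85% of all genes rose and 3.5% fell. All 39 type 2 values were positive, and 38 had an unadjusted p under 0.05. Both comparisons share the non-diabetic libraries.

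Helicase and replication fork genes were among the clearest at day 7. Mcm2, a subunit of the MCM helicase, had 21.4, 32.3 and 41.8 CPM in type 1, 24.4, 28.7 and 35.8 CPM in type 2 and 13.4, 20 and 27.8 CPM in non-diabetic libraries. Mcm3, its partner in the ring, had 31.7, 41.9 and 54.6 CPM in type 1, 31.9, 37.3 and 44.4 CPM in type 2 and 22, 28.5 and 35.1 CPM in non-diabetic libraries. For both genes 7 of 8 type 1 and 5 of 8 type 2 libraries passed the highest non-diabetic level. Mcm2 rose by 0.62 (SE 0.139, adjusted p = 0.00273) in type 1 and 0.47 (SE 0.139, adjusted p = 0.0386) in type 2, and Mcm3 by 0.60 (SE 0.114, adjusted p = 0.00083) and 0.41 (SE 0.114, adjusted p = 0.0291). All 9 licensing and fork genes rose in type 1, with Cdc6, the loader of the helicase, highest (0.74, SE 0.223). In type 2 only Mcm2, Mcm3 and Mcm5 (0.51, SE 0.155) did. Pcna, the sliding clamp of the DNA polymerases, had 41.3, 65.8 and 70.0 CPM in type 1, 43.1, 47.2 and 63.6 CPM in type 2 and 26.2, 36.0 and 52.2 CPM in non-diabetic libraries. It rose in type 1 (0.67, SE 0.137, adjusted p = 0.00157), and its type 2 change was 0.38 (SE 0.137, adjusted p = 0.0861). Cdt1, which loads the helicase with Cdc6, had 11.5, 15.2 and 18.4 CPM in type 1, 10.9, 12.7 and 16.7 CPM in type 2 and 8.57, 11.2 and 16.8 CPM in non-diabetic libraries, and no type 2 library passed the highest non-diabetic one.

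Genes of nucleotide supply followed in type 1. Rrm2, the regulated subunit of ribonucleotide reductase, which makes deoxynucleotides, had 20.5, 31.1 and 39.2 CPM in type 1, 19.4, 25 and 32.7 CPM in type 2 and 13.3, 18.4 and 25.3 CPM in non-diabetic libraries at day 7. Tk1, thymidine kinase, had 26.0, 33.7 and 42.1 CPM in type 1, 23.3, 27.5 and 36.7 CPM in type 2 and 14.4, 23 and 26.3 CPM in non-diabetic libraries. In both genes 7 of 8 type 1 libraries lay above the non-diabetic range. Rrm2 rose by 0.72 (SE 0.141, adjusted p = 0.00118) and Tk1 by 0.67 (SE 0.134, adjusted p = 0.00124) in type 1. Their type 2 changes were 0.44 (adjusted p = 0.0553) and 0.41 (adjusted p = 0.059), and 0 of the 4 supply genes were called in type 2 by edgeR, though all 4 had an unadjusted p under 0.05.

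Among the genes of entry into the cycle, Ccne1 set type 1 apart from non-diabetic tissue at day 7. Ccne1, the cyclin E that activates CDK2 at the start of DNA synthesis, had 7.18, 8.5 and 11.2 CPM in type 1, 5.65, 6.76 and 9.04 CPM in type 2 and 3.84, 5.72 and 6.59 CPM in non-diabetic libraries. All 8 type 1 libraries lay above all 8 non-diabetic ones, which held for 1 of 39 members and for 0.617% of all genes tested, and 4 of 8 type 2 libraries did. Ccne1 rose by 0.71 in type 1 (SE 0.125, adjusted p = 0.000477), the smallest adjusted p among the members, and by 0.34 without a call in type 2 (adjusted p = 0.0965). E2f1, the transcription factor that drives replication genes, had 15.1, 17.8 and 20.3 CPM in type 1, 14.9, 17.8 and 20.6 CPM in type 2 and 9.69, 14.8 and 15.5 CPM in non-diabetic libraries. It rose in type 1 (0.34, SE 0.0896, adjusted p = 0.00938) and type 2 (0.34, SE 0.0895, adjusted p = 0.0233). Foxm1, a factor that drives genes of mitosis and is counted here with the entry genes, had 24.3, 34.0 and 41.3 CPM in type 1, 21.5, 30.6 and 39.1 CPM in type 2 and 17.4, 26.2 and 33.9 CPM in non-diabetic libraries, and rose in type 1 (0.40, SE 0.131, adjusted p = 0.0289).

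Of the 22 genes of mitosis, 21 rose in type 1 and 6 in type 2 at day 7. Cdk1, the kinase that drives cells into mitosis, had 33.3, 43.8 and 54.9 CPM in type 1, 30.4, 37.2 and 48.2 CPM in type 2 and 20.5, 26.5 and 42.8 CPM in non-diabetic libraries. Of 8 libraries each, 4 in type 1 and 3 in type 2 passed the highest non-diabetic one. Cdk1 rose in type 1 (0.59, SE 0.138, adjusted p = 0.00394) and type 2 (0.45, SE 0.138, adjusted p = 0.0445). Aurkb, the kinase of the chromosomal passenger complex, had 13.3, 17.9 and 22.2 CPM in type 1, 12.9, 16.5 and 20.4 CPM in type 2 and 8.23, 12.1 and 13.7 CPM in non-diabetic libraries. It rose by 0.62 (SE 0.111, adjusted p = 0.000543) and 0.48 (SE 0.111, adjusted p = 0.00942), the smallest adjusted p of any member in type 2, and 7 of 8 libraries of each diabetic group lay above every non-diabetic one. Ccnb1, a B-type cyclin and partner of Cdk1, had 17.1, 28.1 and 34.0 CPM in type 1, 15.9, 23.9 and 32.5 CPM in type 2 and 8.81, 17.2 and 27.7 CPM in non-diabetic libraries, and was called in type 1 (0.62, SE 0.187, adjusted p = 0.0187).

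Chromatin, kinetochore and mitotic exit genes are described by 4 members. Top2a, the topoisomerase that untangles sister chromatids, had 63.9, 107 and 137 CPM in type 1, 77.1, 98.4 and 129 CPM in type 2 and 35.0, 61.1 and 110 CPM in non-diabetic libraries at day 7. Its change of 0.66 in type 2 (SE 0.201, adjusted p = 0.0467) was the highest of any member there, next to 0.72 in type 1 (SE 0.202, adjusted p = 0.0127). Mki67, the Ki-67 protein that coats mitotic chromosomes and marks cycling cells, had 104, 153 and 175 CPM in type 1, 100 to 160 CPM with a median of 127 in type 2 and 48.7, 80.2 and 141 CPM in non-diabetic libraries. It rose in type 1 (0.73, SE 0.173, adjusted p = 0.00416) and just missed the threshold in type 2 (0.55, SE 0.173, adjusted p = 0.0512). Cenpe, a kinetochore motor, had 18.7, 29.3 and 34.1 CPM in type 1, 22, 28.9 and 35.6 CPM in type 2 and 8.28, 18.4 and 28.0 CPM in non-diabetic libraries, and rose in both (0.59, adjusted p = 0.0247, and 0.65, adjusted p = 0.0354). Ube2c, the ubiquitin-conjugating enzyme of the anaphase-promoting complex, also rose in both (0.45, adjusted p = 0.0269, and 0.48, adjusted p = 0.0415). Non-diabetic replicate 7 was the highest library of its group for these 4 genes.

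Spindle and checkpoint genes of mitosis had wide ranges in every group at day 7. Tpx2, which switches on the Aurora A kinase at the spindle, had 30.9, 52.8 and 66.9 CPM in type 1, 35.3, 45.1 and 59.4 CPM in type 2 and 20.9, 30.5 and 50.2 CPM in non-diabetic libraries. Kif11, the motor that pushes spindle poles apart, had 20.3, 34.9 and 39.9 CPM in type 1, 20.9, 32.8 and 38.2 CPM in type 2 and 12.7, 18.5 and 34.9 CPM in non-diabetic libraries. Tpx2 exceeded the non-diabetic range in 5 type 1 and 3 type 2 libraries and Kif11 in 4 and 3, and the changes in type 1 were 0.62 (adjusted p = 0.0097) and 0.61 (adjusted p = 0.0212). Prc1, which bundles microtubules between the separating chromosomes, had 18.3, 38.2 and 46.7 CPM in type 1, 28.9, 35.2 and 41.9 CPM in type 2 and 16.5, 22.5 and 40.3 CPM in non-diabetic libraries (0.51, SE 0.176, adjusted p = 0.0367, in type 1). Bub1b, the checkpoint kinase BubR1, had 25.4, 34.0 and 42.5 CPM in type 1, 22.7, 27.5 and 33.7 CPM in type 2 and 11.9, 22.3 and 34.4 CPM in non-diabetic libraries. No type 2 library had more Bub1b than the highest non-diabetic one, and it was called in type 1 (0.64, adjusted p = 0.00668). The other mitosis genes that rose in type 1 ran from Plk1, polo-like kinase (0.42, SE 0.153, adjusted p = 0.0498), to Bub1, a checkpoint kinase (0.70, adjusted p = 0.0176). Kif20a, a kinesin of cytokinesis, completed the calls in type 2 (0.49, SE 0.149, adjusted p = 0.0442).

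**Figure D2:**
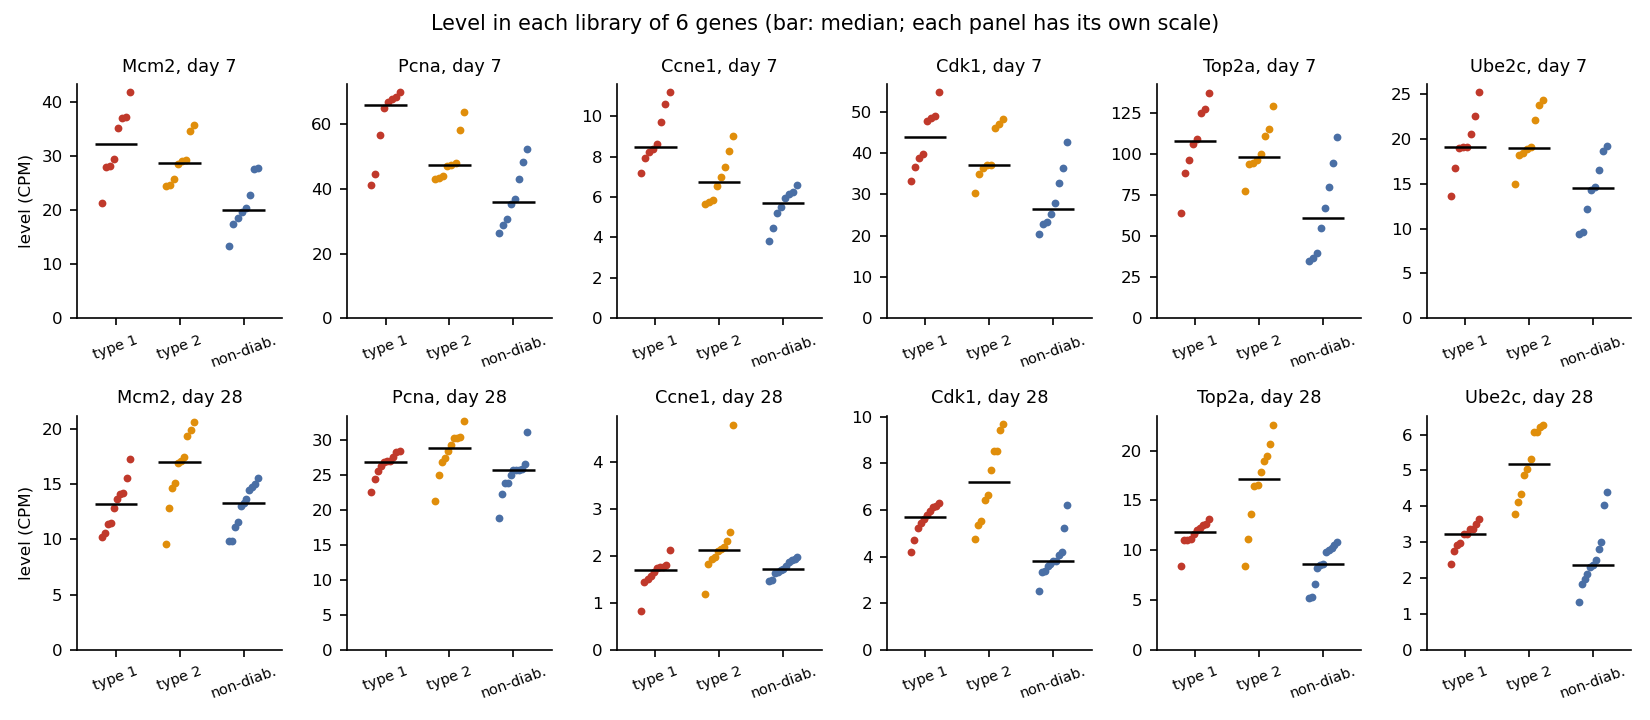
Level in CPM (y axis, own scale in each panel) of Mcm2, Pcna, Ccne1, Cdk1, Top2a and Ube2c at day 7 (top) and day 28 (bottom) in type 1, type 2 and non-diabetic tissue, with 1 point per library and a bar at the median. At day 7 all type 1 points for Ccne1 lie above the non-diabetic points, and at day 28 all type 1 points for Ube2c lie below the type 2 points.

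Markers of several immune cell types differed between the same groups at day 7. Of 10 macrophage markers 6 rose in type 1 and 5 in type 2, and their sum ran from 2800 to 3615 CPM in type 1, 3125 to 3885 CPM in type 2 and 1922 to 3222 CPM in non-diabetic libraries, with no marker at or near 0. Of 8 monocyte markers 8 rose in type 1 and 4 in type 2 (376 to 1816, 261 to 497 and 139 to 459 CPM in type 1, type 2 and non-diabetic tissue). The 1816 CPM was type 1 replicate 4, and the other type 1 libraries reached 730 CPM. Of 8 NK cell markers 3 rose in type 1 and 8 in type 2. Their sums were 8.39 to 17.8 CPM in type 1, 14.3 to 23.4 CPM in type 2 and 4.5 to 9.65 CPM in non-diabetic libraries. Every type 2 library lay above the non-diabetic range. Of 9 T cell markers 3 rose in type 1 and 8 in type 2 (35.7 to 70.5, 53 to 79.8 and 27.1 to 45.5 CPM in type 1, type 2 and non-diabetic tissue). Of 8 neutrophil markers tested 6 rose in type 1 and 2 in type 2 (83.9 to 725, 69.5 to 139 and 35.6 to 241 CPM in type 1, type 2 and non-diabetic tissue). Type 1 reached 280 CPM without replicate 4. Of 7 erythroid markers tested 5 rose in type 1 and 0 in type 2 by edgeR (7 at an unadjusted p under 0.05). Their sums were 142 to 2337 CPM in type 1, 160 to 528 CPM in type 2 and 63.2 to 308 CPM in non-diabetic libraries. Of 10 fibroblast markers 8 fell in type 1 and 1 in type 2, and of 8 mural cell markers 4 fell in type 1 and 2 in type 2. B cell sums had medians of 53.2, 76.5 and 70.4 CPM in type 1, type 2 and non-diabetic tissue. Dendritic cell medians, in the same order, were 70.1, 85.7 and 74.5 CPM, and endothelial medians 1392, 1376 and 1362 CPM. With the mean log2 level of the macrophage markers as a covariate, edgeR called 0 of 39 genes in type 1 (median 0.32, 8 at an unadjusted p under 0.05) and 0 in type 2 (median 0.15, 1 at an unadjusted p under 0.05). With the erythroid markers as a covariate it called 17 and 5. Of all genes, the macrophage covariate left 21 called higher and 102 lower in type 1, against 2016 and 2071 without it. In type 2 it left 22 and 0, against 700 and 636. At day 7 the loss of calls was thus not particular to the 39 genes. With the erythroid covariate 454 of all genes were called higher in type 1 and 506 in type 2. The part of NK cells, T cells, neutrophils and the other cells in the result was not tested further.

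The type 1 calls at day 7 numbered 39 without type 1 replicate 4 and 29 to 39 with any 1 library left out. They numbered 16 when libraries of a group whose names start with the same number, a number that the labels do not explain, were added up (6 type 1 against 6 non-diabetic units). Of all genes 702 were then called higher in type 1, against 2016 on the libraries as they are. The type 2 calls rested on single libraries far more. They numbered 25 without non-diabetic replicate 6 and 32 without non-diabetic replicate 7, 22 without type 2 replicate 2, 5 without non-diabetic replicate 1, 3 without non-diabetic replicate 3, and 2 without non-diabetic replicate 2, 4 or 5. They numbered 6 without type 2 replicate 4 or 6, 3 without type 2 replicate 1 or 7, and 1 without type 2 replicate 3 or 5. With libraries summed (4 type 2 against 6 non-diabetic units) 0 were called by edgeR and 14 had an unadjusted p under 0.05, whereas DESeq2 called 23 on the libraries as they are. Of all genes 700 were called higher in type 2, against 167 with libraries summed and 996 by DESeq2.

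Between type 1 and type 2 tissue at day 7 edgeR called 0 of 39 members (3 had an unadjusted p under 0.05, and 0 were called and 6 had such a p without type 1 replicate 4), where 1.51% of all genes were higher and 1.19% lower in type 1, DESeq2 called 1 and limma-voom with quality weights 6. DESeq2 called 550 of all genes higher in type 1 and limma-voom 1488, against 275 by edgeR. The median log2 difference of type 1 over type 2 was 0.15, positive in 34 of 39 genes. Ccne1 had the largest difference, 0.37 (SE 0.124, adjusted p = 0.0998).

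**Figure D3:**
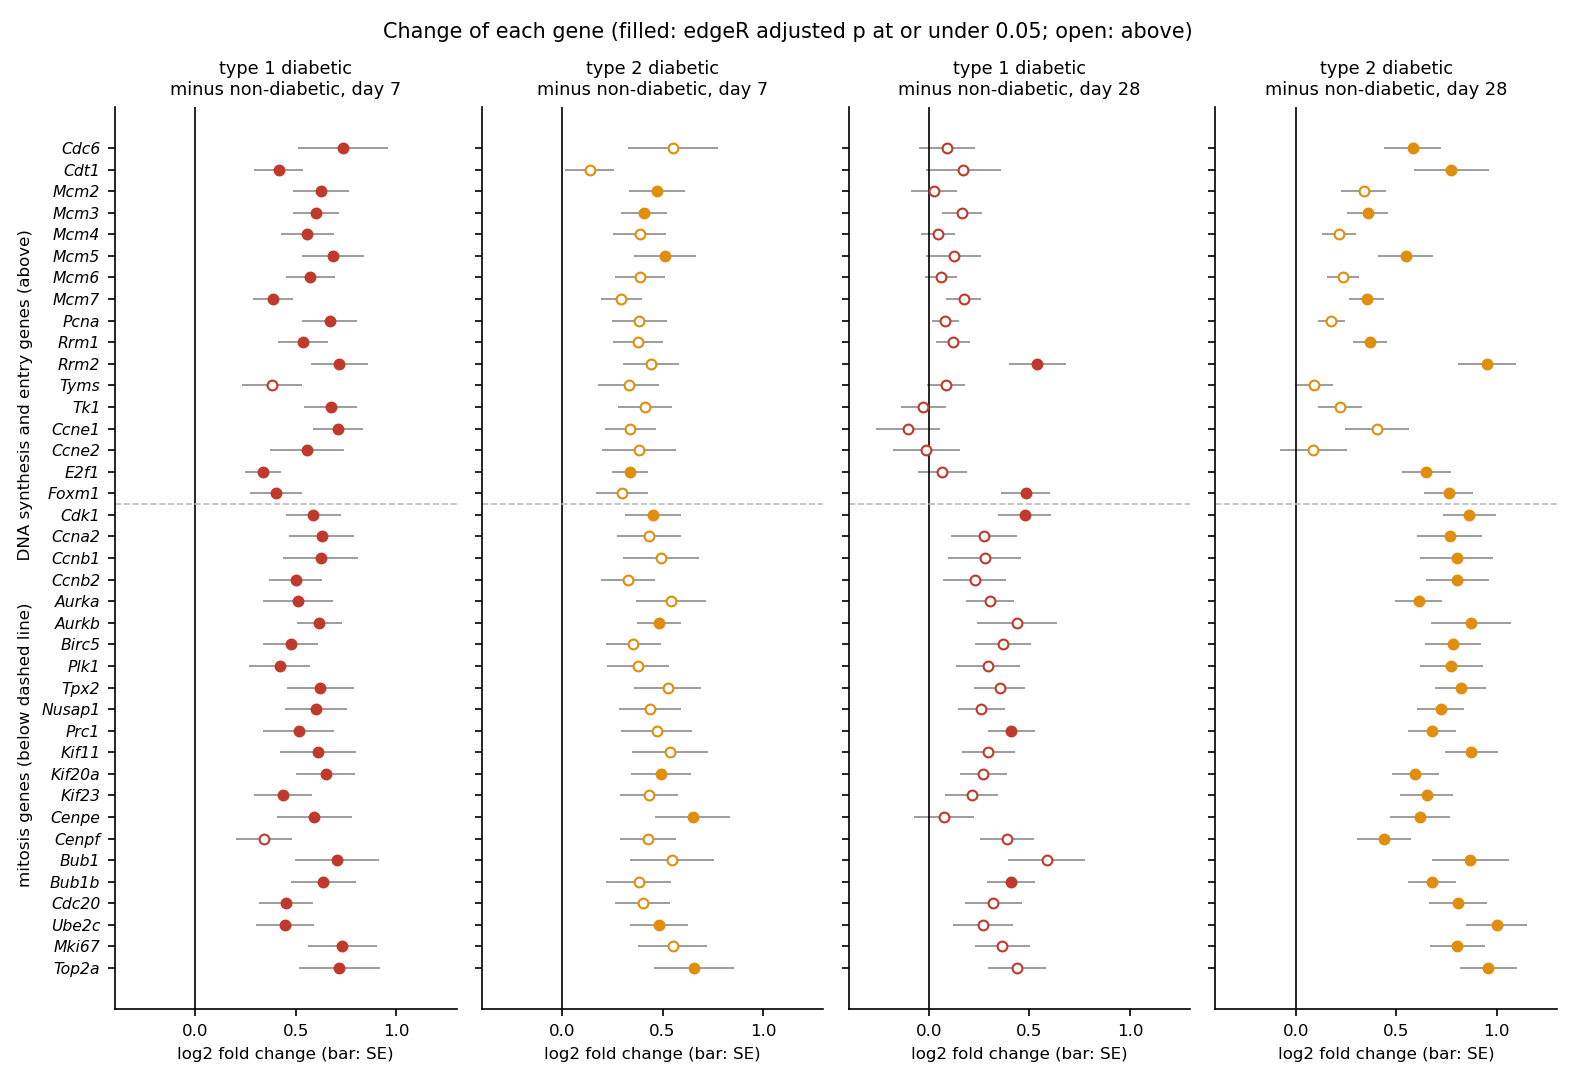
Log2 fold change (x axis, with its SE) of each of the 39 genes in type 1 and type 2 over non-diabetic tissue at day 7 (left pair) and day 28 (right pair), with filled points for an edgeR adjusted p at or under 0.05. At day 28 the 22 mitosis genes below the dashed line are all filled in type 2, and 5 of all 39 genes are filled in type 1.

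At day 28 type 2 tissue had the highest medians. In type 2 against non-diabetic tissue 31 of 39 genes rose and none fell (median log2 change 0.68), where 7.21% of all 18901 genes rose, 3.5% fell and the median was 0.00. All 22 genes of mitosis were among the 31 (median 0.79), with 9 of 17 synthesis and entry genes (median 0.36). In type 1 against non-diabetic tissue 5 of 39 rose (Rrm2, Foxm1, Cdk1, Prc1 and Bub1b) and none fell, where 2.6% of all genes rose and 1.41% fell. The type 1 median was 0.31 for mitosis and 0.08 for synthesis and entry.

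Top2a showed the type 2 difference with the smallest adjusted p. It had 8.46, 11.8 and 13.1 CPM in type 1, 8.41, 17.2 and 22.6 CPM in type 2 and 5.22, 8.65 and 10.8 CPM in non-diabetic libraries at day 28. In each diabetic group 9 of 10 libraries lay above every non-diabetic one, and its change was 0.96 in type 2 (SE 0.143, adjusted p = 3.46e-05) and 0.44 in type 1 (SE 0.142, adjusted p = 0.0752). Mki67 had 10.2, 15.3 and 16.4 CPM in type 1, 10.8, 19.8 and 27.1 CPM in type 2 and 6.82, 11.3 and 14.6 CPM in non-diabetic libraries, and rose in type 2 (0.80, SE 0.138, adjusted p = 0.00022). Ube2c had 2.39, 3.23 and 3.65 CPM in type 1, 3.78, 5.18 and 6.27 CPM in type 2 and 1.33, 2.35 and 4.41 CPM in non-diabetic libraries. It had the highest change of all members in type 2 (1.00, SE 0.151, adjusted p = 3.92e-05), with 7 of 10 type 2 libraries and 0 of 10 type 1 libraries above the non-diabetic range. Prc1 had 3.88, 5.55 and 6.18 CPM in type 1, 3.83, 6.32 and 9.16 CPM in type 2 and 3.23, 4.17 and 4.87 CPM in non-diabetic libraries, and rose in both diabetic groups (0.41, adjusted p = 0.044, in type 1 and 0.68, adjusted p = 0.000253, in type 2).

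Kinases and spindle genes of mitosis differed in type 2 as well. Cdk1 had 4.2, 5.7 and 6.31 CPM in type 1, 4.76, 7.19 and 9.68 CPM in type 2 and 2.54, 3.8 and 6.21 CPM in non-diabetic libraries. It rose by 0.48 in type 1 (SE 0.132, adjusted p = 0.0363) and 0.86 in type 2 (SE 0.132, adjusted p = 4.75e-05). Kif11 had 3.63, 4.12 and 4.92 CPM in type 1, 4.18, 6.57 and 8.06 CPM in type 2 and 2.16, 3.62 and 4.63 CPM in non-diabetic libraries, and rose in type 2 (0.87, SE 0.132, adjusted p = 3.93e-05). Tpx2 had 4.17, 5.22 and 6.21 CPM in type 1, 4.0, 7.49 and 9.87 CPM in type 2 and 3.1, 4.36 and 4.95 CPM in non-diabetic libraries, and rose in type 2 (0.82, SE 0.127, adjusted p = 5.58e-05). Both genes were above the non-diabetic range in 8 of 10 type 2 libraries. Bub1b had 4.14, 5.35 and 5.81 CPM in type 1, 3.35, 6.47 and 8.97 CPM in type 2 and 3.12, 4.11 and 4.99 CPM in non-diabetic libraries, and rose by 0.41 in type 1 (SE 0.12, adjusted p = 0.0487) and 0.68 in type 2 (SE 0.12, adjusted p = 0.000316).

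Other mitotic regulators repeated the pattern with smaller counts. Aurkb had 1.66, 2.24 and 3.08 CPM in type 1, 0.932, 3.35 and 5.09 CPM in type 2 and 0.81, 1.69 and 2.54 CPM in non-diabetic libraries at day 28, and 7 of 10 type 2 libraries exceeded the non-diabetic range (0.87, SE 0.199, adjusted p = 0.00396). Ccnb1 had 1.56, 2.56 and 3.07 CPM in type 1, 1.91, 3.51 and 4.75 CPM in type 2 and 1.2, 1.84 and 3.6 CPM in non-diabetic libraries (0.80, SE 0.181, adjusted p = 0.0039, in type 2). Cenpe was among the lowest in level, with 1.04, 2.34 and 2.61 CPM in type 1, 1.82, 3.24 and 3.94 CPM in type 2 and 1.55, 2.05 and 2.56 CPM in non-diabetic libraries, and rose in type 2 (0.62, SE 0.148, adjusted p = 0.0064). In type 1 the changes of Aurkb and Ccnb1 were 0.44 and 0.28 (adjusted p = 0.211 and 0.413), and Cenpe, at 0.07, was not called. Of the mitosis genes Cenpf had the smallest change in type 2 (0.44, SE 0.135, adjusted p = 0.0332), while Cdc20, the activator of the anaphase-promoting complex, reached 0.81 (adjusted p = 0.000316) and Birc5, survivin, a partner of Aurkb, 0.78 (adjusted p = 0.000307). Bub1 was the highest in type 1 by its change (0.59, SE 0.192) but was not called (adjusted p = 0.0777).

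The synthesis and entry genes were uneven at day 28. Rrm2 had 7.36, 8.39 and 10.2 CPM in type 1, 6.03, 12.5 and 15.6 CPM in type 2 and 4.03, 5.45 and 9.4 CPM in non-diabetic libraries, and rose in both (0.54, SE 0.142, adjusted p = 0.0268, in type 1 and 0.95, SE 0.143, adjusted p = 3.77e-05, in type 2). Foxm1 had 3.59, 5.15 and 5.61 CPM in type 1, 3.99, 6.11 and 7.64 CPM in type 2 and 2.47, 3.24 and 4.49 CPM in non-diabetic libraries. In each diabetic group 8 of 10 libraries had more Foxm1 than every non-diabetic library (0.48, SE 0.121, adjusted p = 0.0194, in type 1 and 0.76, SE 0.121, adjusted p = 7.75e-05, in type 2). E2f1 had 3.93, 4.82 and 6.34 CPM in type 1, 4.88, 7.4 and 9.74 CPM in type 2 and 2.71, 4.8 and 6.28 CPM in non-diabetic libraries, and rose in type 2 (0.65, SE 0.121, adjusted p = 0.00058) with a type 1 change of 0.07 (adjusted p = 0.815). By contrast Pcna had 22.6, 26.9 and 28.5 CPM in type 1, 21.3, 28.9 and 32.8 CPM in type 2 and 18.9, 25.8 and 31.2 CPM in non-diabetic libraries, and was called in neither diabetic group (0.08, adjusted p = 0.541, in type 1 and 0.18, adjusted p = 0.0864, in type 2). Helicase subunits were split: Mcm3 (0.36, adjusted p = 0.0187), Mcm5 (0.55, adjusted p = 0.00942) and Mcm7 (0.35, adjusted p = 0.0088) rose in type 2, and Mcm2 did not pass the threshold (0.34, adjusted p = 0.0536). Mcm2 had 10.2, 13.2 and 17.3 CPM in type 1, 9.54, 17.0 and 20.6 CPM in type 2 and 9.83, 13.3 and 15.5 CPM in non-diabetic libraries, and Mcm3 had 13.4, 15.7 and 17.7 CPM in type 1, 12.4, 16.5 and 27.5 CPM in type 2 and 10.5, 13.6 and 16.7 CPM in non-diabetic libraries. Type 2 replicate 4 was the highest type 2 library for Mcm2 and Mcm3, and also for Pcna, Top2a, Mki67, Aurkb and Ccnb1. Mcm2, Mcm4, Mcm6, Pcna, Tk1, Tyms, Ccne1 and Ccne2 were the 8 members not called in type 2.

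Type 2 calls at day 28 numbered 31 without type 2 replicate 4 and 30 to 34 with any 1 library left out. They numbered 17 with the macrophage markers as a covariate (median 0.49) and 7 with libraries summed (5 type 2 against 4 non-diabetic units). Of all genes 1362 were called higher, against 747 with the macrophage covariate and 313 with libraries summed. Of the macrophage markers 1 of 10 rose in type 1 and 5 in type 2 (3 without type 2 replicate 4), and their sum ran from 683 to 1315 CPM in type 1, 874 to 1844 CPM in type 2 and 458 to 1387 CPM in non-diabetic libraries. The 1844 CPM was type 2 replicate 4, and the other type 2 libraries reached 1500 CPM. Of 9 T cell markers 0 rose in type 1 by edgeR (0 at an unadjusted p under 0.05) and 9 in type 2. Without type 2 replicate 4 the type 2 count was 4 (9 at an unadjusted p under 0.05). Their sum was 9.89, 15.0 and 22.4 CPM in type 1, 12.6, 21.6 and 122 CPM in type 2 and 5.85, 10.8 and 31.3 CPM in non-diabetic libraries. The 122 CPM was type 2 replicate 4, and the other type 2 libraries reached 38.6 CPM. The type 2 median lay within the non-diabetic range. Of 8 NK cell markers 0 rose in type 1 by edgeR (0 at an unadjusted p under 0.05) and 6 in type 2. Their sums were 2.67 to 6.59 CPM in type 1, 6.42 to 18.8 CPM in type 2 and 2.03 to 11.3 CPM in non-diabetic libraries. Without replicate 4 the type 2 sums reached 13.2 CPM. Of 8 monocyte markers 0 rose in type 1 by edgeR (1 at an unadjusted p under 0.05) and 3 in type 2. Endothelial sums had medians of 1655, 1742 and 1475 CPM in type 1, type 2 and non-diabetic tissue. With the endothelial markers as a covariate 29 of 39 genes were called in type 2 (median 0.66), and 1179 of all genes were called higher. B cell medians, in the same order, were 85.5, 295 and 275 CPM, and dendritic cell medians 52.2, 62.2 and 52.0 CPM. The part of T cells, NK cells and monocytes in the result was not tested.

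Of the 5 type 1 calls at day 28, those of Foxm1 (adjusted p = 0.0119 to 0.0392) held without any single library. Rrm2 lost its call without 2 of 21 libraries, Cdk1 without 13, Prc1 without 14 and Bub1b without 18. The count was 3 without type 1 replicate 3 or 7 and 2 without type 1 replicate 2, 5, 6, 8 or 9. It was 3 without non-diabetic replicate 3, 4 or 7, 2 without non-diabetic replicate 1, 2, 6, 9 or 10 and 1 without non-diabetic replicate 5. It was 2 with the macrophage markers as a covariate (median 0.19 over the 39 genes, against 0.27 without it), 9 by limma-voom, and 0 by edgeR with libraries summed (6 at an unadjusted p under 0.05). Of all genes 492 were called higher, against 498 with the macrophage covariate, 1588 by limma-voom and 5 with libraries summed.

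Type 1 against type 2 tissue at day 28 gave lower values in type 1 for all 39 genes, of which 8 were called lower and none higher (median log2 difference -0.42), where 2.03% of all genes were lower and 1.19% higher. The 8 were E2f1, Ccnb2 (the other mitotic B-type cyclin), Tpx2, Nusap1, Kif11, Cenpe, Ube2c and Top2a. Ube2c stood out: all 10 type 1 libraries lay below all 10 type 2 libraries, which held for 1 of 39 members and 0.206% of all genes, and the difference was -0.73 (SE 0.154, adjusted p = 0.00494). E2f1 differed by -0.58 (SE 0.125, adjusted p = 0.00542), with 6 of 10 type 1 libraries below every type 2 library. Nusap1, which stabilises spindle microtubules near chromatin, had 2.99, 4.01 and 4.63 CPM in type 1 and 3.8, 5.59 and 7.45 CPM in type 2 tissue (-0.46, SE 0.12, adjusted p = 0.0273). The calls of E2f1, Kif11 and Ube2c held without any single library and with the macrophage markers as a covariate, where they were the 3 called and the median of the 39 genes was -0.26. The count was 4 without type 2 replicate 4, 17 without type 2 replicate 6, 3 without type 2 replicate 1 or 10, 4 without type 2 replicate 3 or 9, 5 without type 1 replicate 3 and 4 without type 1 replicate 1, 2, 4, 5, 7 or 10. DESeq2 called 15, and with libraries summed edgeR called 0 (17 at an unadjusted p under 0.05). Of all genes 383 were called lower, against 597 with the macrophage covariate, 634 by DESeq2 and 109 with libraries summed.

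Whether the diabetic effect itself changed with time was tested as the difference between days of the diabetic over non-diabetic change. The type 1 effect was smaller at day 28 in 8 of 39 genes (Mcm2, Mcm3, Mcm4, Mcm6, Pcna, Rrm1, Tk1 and Ccne1) and larger in none, where 5.5% of all 20421 genes tested had a lower and 6.98% a higher effect at day 28. All 8 belong to the 17 synthesis and entry genes (median -0.53). EdgeR called 0 of the 22 mitosis genes (median -0.24), of which Cenpe and Kif20a had the lowest adjusted p-values (0.134 and 0.169). Ccne1 had the largest difference (-0.82, SE 0.216, adjusted p = 0.00746): its type 1 change was -0.10 at day 28 (0.821, 1.7 and 2.12 CPM in type 1, against 1.46, 1.72 and 1.97 CPM in non-diabetic libraries) and 0.71 at day 7. Tk1 followed (-0.71, SE 0.177, adjusted p = 0.00466), with 5.59, 7.06 and 8.46 CPM in type 1 and 5.51, 7.11 and 8.72 CPM in non-diabetic libraries at day 28, where no type 1 library passed the highest non-diabetic one. Pcna differed by -0.60 (SE 0.149, adjusted p = 0.0046) and Mcm6 by -0.53 (SE 0.146, adjusted p = 0.0114).

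**Figure D4:**
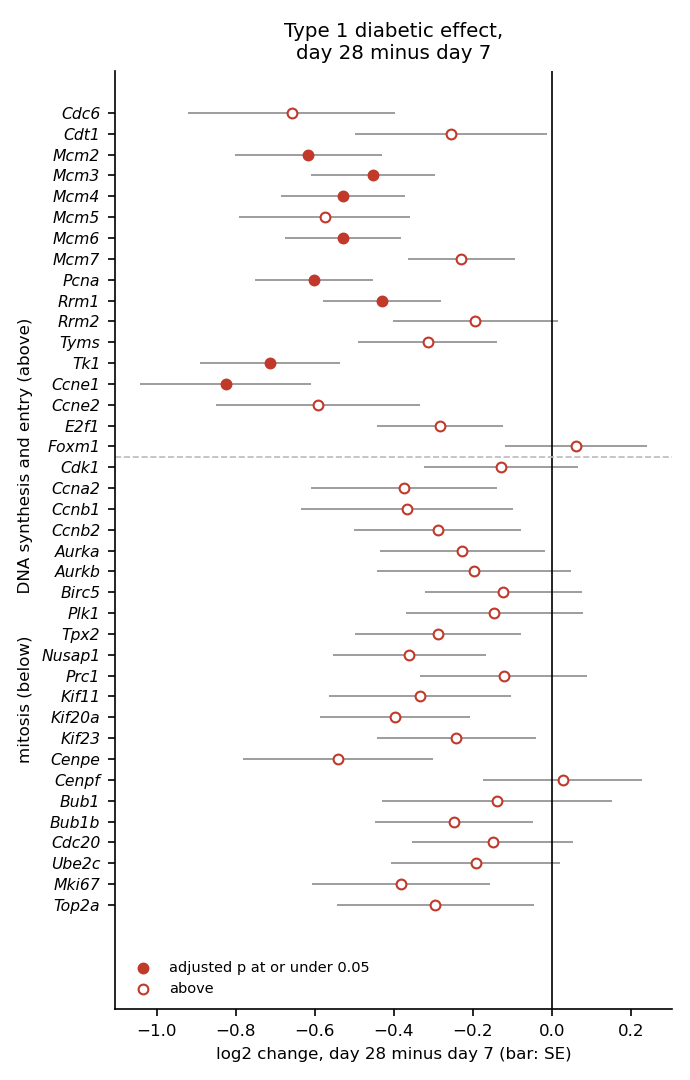
Difference between day 28 and day 7 in the type 1 over non-diabetic log2 change of each gene (x axis, with its SE), with filled points for an edgeR adjusted p at or under 0.05. The 8 filled points all lie left of 0 and among the synthesis and entry genes above the dashed line, Ccne1 (-0.82) farthest.

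The count of 8 was 10 without type 1 replicate 4 of day 7 and 6 to 10 with any 1 library left out, and Mcm3 and Rrm1 lost their calls without 22 and 27 of 37 libraries. For the type 2 effect edgeR and DESeq2 called 0 of 39 genes in either direction (6 at an unadjusted p under 0.05 in edgeR, and 0 called with 3 at such a p without type 2 replicate 4 of day 28), where 0.426% of all genes had a lower and 1.08% a higher effect at day 28. The type 2 median was -0.04 over the synthesis and entry genes and 0.28 over the mitosis genes, and Cdt1 had the highest value (0.62, SE 0.242, adjusted p = 0.178). Cdt1 at day 28 had 2.98, 4.29 and 12.4 CPM in type 2 and 1.87, 3.01 and 4.1 CPM in non-diabetic libraries, its highest value being type 2 replicate 4. The difference between the type 1 and the type 2 change over time was not tested.

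Within a group the 39 genes moved together from library to library. After the group means of log2 CPM had been removed, 1 principal component held 79.0% of the variance of the 39 genes at day 7 (24 libraries) and 55.4% at day 28 (31 libraries), and all 39 genes had the same sign on it at both days. The share of 1 component was not computed for other genes, so whether it is particular to the 39 was not tested. The SD within groups ranged from 0.18 (E2f1) to 0.50 (Cdc6) log2 units at day 7 and from 0.16 (Pcna) to 0.50 (Aurkb) at day 28. The ratio of the mitosis sum to the synthesis and entry sum was 1.34 (1.24 to 1.39) in type 1, 1.36 (1.28 to 1.54) in type 2 and 1.29 (1.02 to 1.54) in non-diabetic tissue at day 7 (median and range over libraries). At day 28 it was 0.521 (0.387 to 0.569), 0.563 (0.474 to 0.69) and 0.428 (0.337 to 0.519) in type 1, type 2 and non-diabetic tissue. Synthesis and entry genes thus gave most of the counts at day 28 and mitosis genes at day 7. These sums weigh abundant and long genes most.

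**Figure D5:**
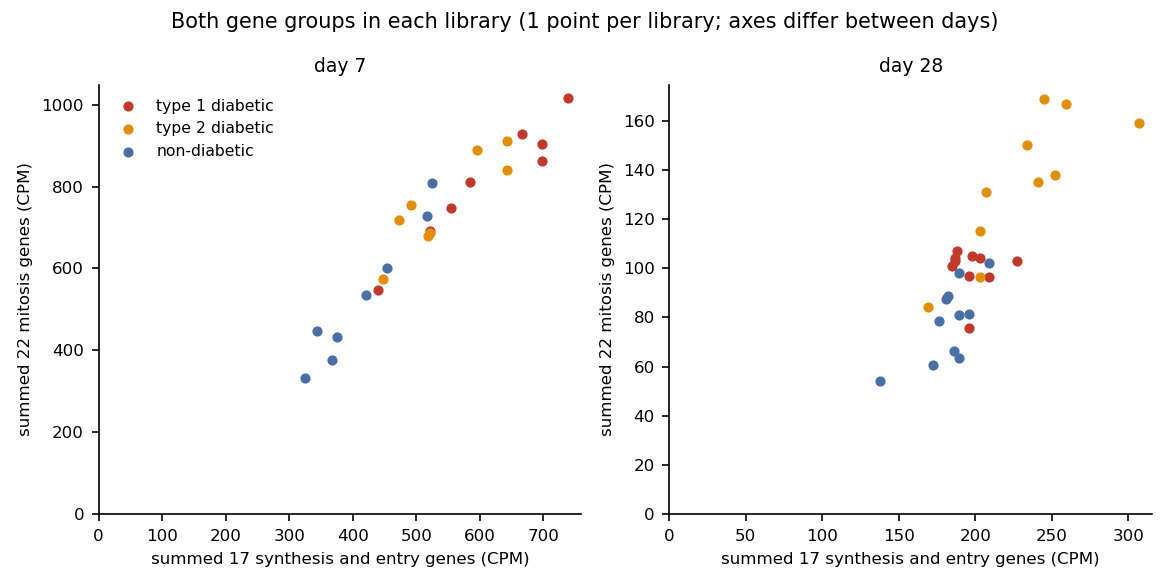
Summed level in CPM of the 22 mitosis genes (y axis) against that of the 17 synthesis and entry genes (x axis) at day 7 (left) and day 28 (right), with 1 point per library and axes that differ between days. At day 28 type 2 libraries reach 307 CPM of synthesis and entry genes and 169 CPM of mitosis genes, and type 1 libraries 227 and 107 CPM. The 307 CPM is type 2 replicate 4, which stood apart, and the next highest type 2 library has 259 CPM.

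Per kilobase of exon, Pcna was the most abundant member in every group, followed by Mcm6. Pcna had a median of 27.4 CPM per kilobase in type 1, 19.7 in type 2 and 15.0 in non-diabetic tissue at day 7, and 11.2, 12 and 10.7 at day 28. Cdc6 was the least abundant in 4 groups (1.4, 1.17 and 0.766 CPM per kilobase in type 1, type 2 and non-diabetic tissue at day 7 and 0.374 in type 2 tissue at day 28), and Cenpe in type 1 (0.271) and non-diabetic tissue (0.238) at day 28.

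Partners of these genes were followed in 5 lists. At day 7, 11.1% of all genes rose in type 1 and 3.85% in type 2, and at day 28, 2.6% rose in type 1 and 7.21% in type 2. The type 1 change was lower at day 28 than at day 7 for 5.5% of all genes. Of 29 origin and replisome partners, 24 rose in type 1 and 2 in type 2 at day 7, and 0 rose in type 1 by edgeR (5 at an unadjusted p under 0.05) and 7 in type 2 at day 28. At day 7 Pole, the catalytic subunit of the leading-strand polymerase, rose by 0.79 (adjusted p = 0.00122) and Prim1, the primase subunit, by 0.69 (adjusted p = 0.00137) in type 1. At day 28 Dbf4, the activator of the CDC7 kinase that fires origins, rose by 0.64 in type 2 (adjusted p = 0.000257). Of 36 mitotic and kinetochore partners, 31 rose in type 1 and 8 in type 2 at day 7, and 1 in type 1 (Kif18b, a kinesin, 0.65, adjusted p = 0.0234) and 29 in type 2 at day 28. Racgap1, which acts with Kif23 in cytokinesis, rose by 0.59 in type 1 at day 7 (adjusted p = 0.00277) and by 0.71 in type 2 at day 28 (adjusted p = 5.05e-05). The type 1 change was lower at day 28 than at day 7 for 11 of the 29 replisome and 6 of the 36 mitotic partners. Among them were Prim1 (-0.81, adjusted p = 0.00125) and the condensin subunit Ncapd2 (-0.49, adjusted p = 0.000952).

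Upstream regulators are described by 3 of the lists, whose counts stand beside shares of all genes that rose of 11.1% in type 1 and 3.85% in type 2 at day 7, and 2.6% and 7.21% at day 28. Of 17 tested E2F, pocket protein and DREAM genes 7 rose in type 1 at day 7, among them E2f2 (0.54, adjusted p = 0.00118), Rbl1, which encodes p107 (0.58, adjusted p = 0.00327), and Rb1, the retinoblastoma protein that restrains E2F (0.33, adjusted p = 0.00388). Rb1 had 0.15 in type 2 at day 7 (adjusted p = 0.234), and 0.04 in type 1 and -0.05 in type 2 at day 28 (adjusted p = 0.756 and 0.638). In type 2 at day 7 only Rbl1 rose (0.47, adjusted p = 0.0306), and at day 28 E2f7, E2f8 and Mybl2 rose in type 2. Of 18 D cyclins, interphase kinases and CDC25 genes 6 rose in type 1 and 0 in type 2 by edgeR at day 7 (5 at an unadjusted p under 0.05). Ccnd1, cyclin D1, was called in no comparison (0.37, adjusted p = 0.126, in type 1 and 0.32, adjusted p = 0.273, in type 2 at day 7). At day 28 Ccnd3, cyclin D3, rose in type 1 (0.31, adjusted p = 0.00235) and type 2 (0.28, adjusted p = 0.00189), as did Wee1, the kinase that restrains Cdk1 (0.47, adjusted p = 0.0242, and 0.57, adjusted p = 0.00215), while Ccnd2 fell in type 2 (-0.28, adjusted p = 0.0185).

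Inhibitors of the cycle went both ways. Cdkn1b, the CDK inhibitor p27, was lower at day 7 in type 1 (-0.30, SE 0.0746, adjusted p = 0.00663) and type 2 (-0.26, SE 0.0746, adjusted p = 0.0324), and its values at day 28 were 0.04 and -0.03 (adjusted p = 0.802 and 0.82). Cdkn1a, the CDK inhibitor p21 and a target of p53, rose at day 28 in type 1 (0.61, SE 0.149, adjusted p = 0.0161) and type 2 (0.77, SE 0.149, adjusted p = 0.000829) and at day 7 in type 2 (0.40, SE 0.123, adjusted p = 0.0478), with 0.14 in type 1 at day 7 (adjusted p = 0.44). Of 16 CDK inhibitors and p53 targets 1 rose (Cdkn2d, the CDK4 and CDK6 inhibitor p19, 0.19, adjusted p = 0.0454) and 4 fell in type 1 at day 7, where 11.1% of all genes rose and 11.4% fell. Without type 1 replicate 4 the numbers were 2 and 7. Besides Cdkn1b, those that fell were Cdkn2b, the inhibitor p15 (-0.68, adjusted p = 0.00616), the stress gene Gadd45b (-0.56, adjusted p = 0.00553) and Phlda3 (-0.27, adjusted p = 0.00805). Day 28 minus day 7, the type 1 change was higher by 0.94 for Gadd45b (adjusted p = 0.000623) and by 0.32 for Cdkn1b (adjusted p = 0.0229). Both genes were lower in type 1 at day 7.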

How the data were processed

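Per the labels' protocols, a PureLink RNA Mini kit and a TruSeq Stranded mRNA kit were used on infarcted left ventricle. The authors deposited whole-number counts per gene, with Ensembl gene identifiers, in 1 table per day; the submitters' processing notes name build mm39 and DESeq2, while no aligner, counter, strand setting or annotation is given in the sources used here. Reads of overlapping antisense genes may therefore be mixed. The 39 members and all gene lists were chosen with earlier results of these data known.

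The counts were used as deposited. Of the counts from 1 to 49, 76.4% were even at day 7 and 75.2% at day 28. A count may therefore not stand for 1 fragment, and the reason was not tested. Symbols were matched for 51948 identifiers at day 7 (99.34% of counts) and 51880 at day 28 (99.58%). Genes with low counts were removed (filterByExpr, minimum count 10, minimum total 15), and edgeR 4.0.16 (R 4.3.3) tested the 3 groups of a day together with TMM scaling and an adjusted p of 0.05; the change over time came from a fit of all 6 groups. Standard errors are the size of the log2 change divided by the square root of F. Values per group are given for 12 chosen members and those with the 5 lowest adjusted p-values in a comparison (21 in all), and other members are named where a count or an extreme points to them. Partners are named from the 3 lowest adjusted p-values of their list in a comparison, with Cdkn1a, Cdkn1b, Ccnd1 and Rb1 always named. Exon lengths came from GENCODE M21 (GRCm38). The fit was checked on simulated counts. Alternatives were DESeq2 1.42.0, limma 3.58.1, no count filter, only the groups compared, marker covariates, a replicate block, summed libraries and each library left out. No 2 libraries of a group were copies, the lowest chi-square per gene being 17.6 over genes with at least 50 counts.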

Additional observations from a re-analysis of the deposited data

Results flagged for a closer look

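A library lay far from the rest of its group in 6 of 110 sets of levels looked at, those of 21 members and of the sum over all 39, in the 5 groups of at most 10 libraries. Chance alone gives about 1 in 20. Prc1 was 18.3 CPM in type 1 replicate 4 at day 7, where the other type 1 libraries had 33.5 to 46.7 CPM. E2f1 was 9.69 CPM in non-diabetic replicate 5 at day 7 (others 13.3 to 15.5 CPM). At day 28 Ccne1 was 0.821 CPM in type 1 replicate 5 (others 1.45 to 2.12 CPM) and Top2a was 8.46 CPM in type 1 replicate 10 (others 11.0 to 13.1 CPM). Type 2 replicate 4 at day 28 was high for Cdt1 (12.4 CPM, others 2.98 to 4.96 CPM) and for Ccne1 (4.79 CPM, others 1.18 to 2.52 CPM), the same library that had few cardiomyocyte and many B cell transcripts.

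The type 1 change differed between days for 8 members by edgeR's test of the difference itself. The difference, day 28 minus day 7 on the log2 scale, was -0.62 for Mcm2, -0.45 for Mcm3, -0.53 for Mcm4, -0.53 for Mcm6, -0.6 for Pcna, -0.43 for Rrm1, -0.71 for Tk1 and -0.82 for Ccne1. Time after MI and sequencing project cannot be told apart in it.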

How the results depend on the processing

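No member changed sign with a call under any alternative (10140 values, of which 517 lost and 228 gained a call and 162 changed sign with a call in neither). Numbers of members called moved over 1.5-fold as follows, and the cause was not tested. Type 1 over non-diabetic, day 7 (37): macrophage covariate 0, erythroid covariate 17, summed libraries (fewer units) 16. Of all genes 2016 were higher there, and in these settings, in the same order, 21, 454 and 702. Type 2 over non-diabetic, day 7 (10): macrophage 0, summed 0, erythroid 5, no filter 4, DESeq2 23, endothelial 26, B cell 30, replicate block 31. Of all genes 700 were higher there, and in these settings, in the same order, 22, 167, 506, 524, 996, 1013, 1103 and 858. Type 1 over type 2, day 7 (0): DESeq2 1, macrophage 2, limma-voom 6. Of all genes 275 were higher there, and in these settings, in the same order, 550, 601 and 1488. Type 1 over non-diabetic, day 28 (5): summed 0, macrophage 2, erythroid 2, endothelial 2, no filter 2, replicate block 3, B cell 8, only the groups compared 8, limma-voom 9. Of all genes 492 were higher there, and in these settings, in the same order, 5, 498, 350, 487, 297, 232, 744, 613 and 1588. Type 2 over non-diabetic, day 28 (31): summed 7, macrophage 17. Of all genes 1362 were higher there, and in these settings, in the same order, 313 and 747. Type 1 below type 2, day 28 (8): summed 0, macrophage 3, no filter 3, replicate block 3, B cell 4, DESeq2 15. Of all genes 383 were lower there, and in these settings, in the same order, 109, 597, 275, 235, 264 and 634. The B cell and endothelial covariates, and the counts of other listed genes without the 2 libraries that stood apart, were chosen after seeing the data. Libraries with the same replicate number in 2 groups did not all vary together (correlations of -0.42 to 0.37), so the block rests on numbers that do not pair them. With any 1 library left out these counts ran from 29 to 39, 1 to 32, 0 to 0, 1 to 7, 30 to 34 and 3 to 17, and from 6 to 10 for the type 1 change over time (8), which was 9 by DESeq2 and 7 with the replicate block. Depth limits most the levels of non-diabetic replicate 4 at day 7, with 10.8 M counts, of which 7717 fell on the members.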
